A study of Solanum lycopersicum and Arabidopsis thaliana and Cannabis sativa with 28 samples.

Results

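Among the 17455 H3K9ac domains listed as higher in tomato seedlings after 2 h of jasmonic acid (JA) than in ctrl seedlings, 4005 (22.9%) shared no base with any listed H3K4me3 domain, lay in a stretch of the genome rich in H3K4me3 domains, and had a modest change. They were chosen by 3 criteria. No base was shared with any of the 18758 listed tomato H3K4me3 domains, the ratio of 2 h JA to ctrl reads was under 1.6, and the domain's midpoint lay in a 1 Mb bin that held the midpoints of 10 or more H3K4me3 domains. Overlap with H3K4me3, the read ratio and the H3K4me3 density of the bin are therefore selection criteria and not findings. Below, without or free of H3K4me3 means only that no H3K4me3 domain was listed there. Unlisted H3K4me3, and H3K4me3 after JA, cannot be judged here. The bins were taken as gene-dense by their H3K4me3 domains only. Gene density itself was not measured, as no annotation on SLM_r2.0 was used here, and the bins are called H3K4me3-dense below.

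The seedlings were whole 2-week-old plants of the tomato variety Micro-Tom, a dwarf cultivar. For H3K9ac, seedlings exposed to gaseous JA for 2 h in a closed container (2 h JA) were set against untreated seedlings (ctrl), with 3 libraries per group. H3K4me3 was profiled in untreated seedlings only, with 3 H3K4me3 libraries and 3 IgG control libraries. All came from the PHILO ChIP-seq protocol, a low-input chromatin immunoprecipitation in plates or tube strips. The groups are those of the sample titles, whereas the treatment field of the labels reads none for all of these libraries. The replicates of each group were merged before domains were called, so that each domain has 1 read count per group and no spread between replicates. No difference below was tested over samples, and the intervals given cover counting error of reads, or the spread between domains. In whole seedlings, a mark in fewer cells and less of the mark per cell cannot be told apart.

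Acetylation of lysine 9 on histone H3 loosens chromatin and is found at active promoters and at distal regulatory elements. Trimethylation of lysine 4 on the same histone is concentrated at the start of transcribed genes and is used as a mark of active promoters. Acetylated regions that lack H3K4me3 are candidates for regulatory sequence outside promoters, although the marks alone do not define an enhancer. Jasmonates are plant hormones of wounding and herbivore defense, whose transcriptional response depends on MYC2, a transcription factor that is held in check by JAZ repressors until the hormone is perceived. Genome sequence was not used here, and the domains are given by their position on SLM_r2.0.

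The domains without H3K4me3 were of moderate size. Their median size was 3199 bp, with quartiles of 1999 and 4799 bp, and the longest spanned 23399 bp. Over all listed H3K9ac domains the median was 3999 bp, with quartiles of 2399 and 6999 bp. Only 149 (3.72%) of the domains without H3K4me3 were longer than 10 kb, whereas 2385 (13.7%) of all listed domains were. Together they covered 15.6 Mb, which was 15.9% of the length of all listed domains. They held 816061 of the 2 h JA reads and 752785 of the ctrl reads, or 8.64% and 8.38% of the reads in all listed domains, so that their share of reads was lower than their share of length.

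Few reads stood behind a single domain. The median was 159 reads in the merged 2 h JA library, with quartiles of 107 and 248, and 145 reads in the merged ctrl library, with quartiles of 93 and 234. Fewer than 100 ctrl reads were counted in 1149 (28.7%) of these domains, against 10.0% of all listed domains. A median domain of the whole table held 378 reads in 2 h JA and 356 in ctrl. The counts behind the domains without H3K4me3 were thus lower than those of the table as a whole, and their fold changes are less precise.

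H3K9ac reads were sparse in these domains in both libraries. The H3K9ac domains were called against ctrl and not against IgG, so that low acetylation and background reads cannot be told apart here. The median was 51.1 reads per kb of domain in 2 h JA, with quartiles of 43.2 and 61.9, and 45.9 reads per kb in ctrl, with quartiles of 38.9 and 56.3. The 8500 H3K9ac domains that overlapped 1 H3K4me3 domain, taken from the same dense bins and with the same ratio limit, had medians of 115 reads per kb in 2 h JA and 109 in ctrl. The quartiles of the ctrl values did not overlap between these sets, the lower quartile being 83.3 reads per kb with 1 H3K4me3 domain. In the 2337 domains that overlapped several H3K4me3 domains, the medians were 106 reads per kb in 2 h JA and 104 in ctrl. The closest values were found in the 1091 domains without H3K4me3 in sparse bins of at most 9 H3K4me3 domains, with medians of 53.6 in 2 h JA and 48.3 in ctrl. Reads per kb are averages over a whole domain, and the lowest 2 h JA value among the domains without H3K4me3, 29.0 reads per kb, was also the lowest in the table.

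Small domains had the highest density, also among the domains without H3K4me3. Their median ctrl density was 53.8 reads per kb in domains under 1600 bp, 44.4 from 1600 to under 2400 bp, 43.9 from there to under 4000 bp, 45.4 from there to under 8000 bp and 48.4 in the longest class. In domains with 1 H3K4me3 domain it was 190, 146, 116, 94.7 and 76.8 reads per kb in the same classes. The gap between the sets was therefore widest among small domains and narrowest among large ones, and remained in each of the 5 classes. The same order held in the 2 h JA library, where medians were 65.0 and 50.6 reads per kb in the smallest and largest domains without H3K4me3, and 205 and 80.1 in those with 1 H3K4me3 domain.

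**Figure D1:**
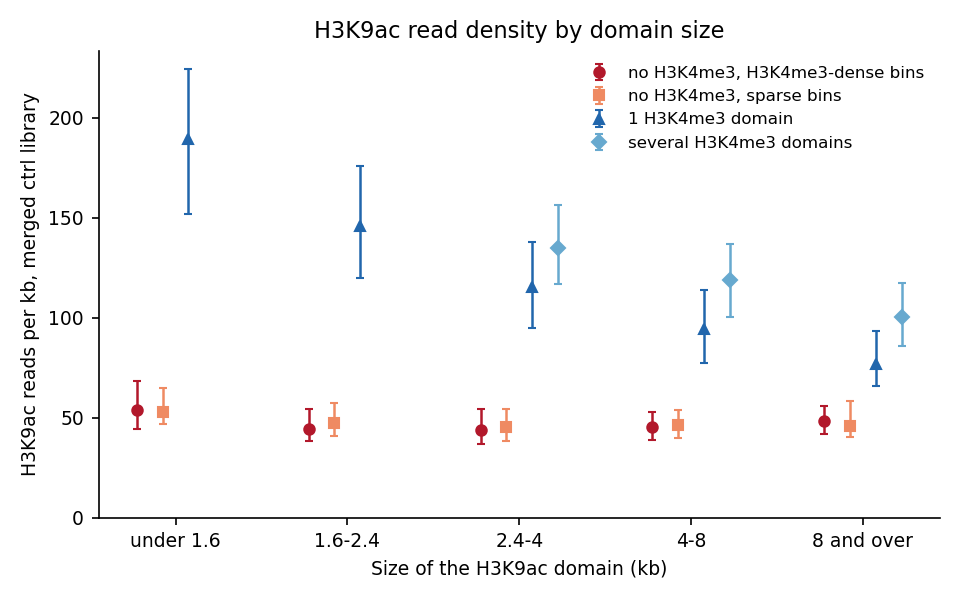
H3K9ac reads per kb in the merged ctrl library (vertical axis) by size class of the H3K9ac domain in kb (horizontal axis); points are medians and bars quartiles over domains, for domains without H3K4me3 in H3K4me3-dense bins and in sparse bins, and for domains over 1 or several H3K4me3 domains. The domains without H3K4me3 stay between 43.9 and 53.8 reads per kb in dense bins, while those over 1 H3K4me3 domain go from 190 in the smallest to 76.8 in the largest class; sets with fewer than 10 domains in a class are not drawn.

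The distance of the domains without H3K4me3 to the nearest H3K4me3 domain varied widely. The median distance between the edges was 5800 bases, with quartiles of 2400 and 13800. Within 1 kb of H3K4me3 lay 306 (7.64%) of the 4005 domains, within 2 kb 818 (20.4%) and within 5 kb 1828 (45.6%). More than 10 kb away lay 1325 (33.1%) and more than 50 kb away 228 (5.69%). The requirement of a dense bin limits these distances, and in sparse bins the median was 48000 bases.

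Distance to H3K4me3 went with neither the density nor the change of H3K9ac. The median ctrl density was 45.2 reads per kb in the domains up to 1 kb from H3K4me3 and 45.4 in those more than 50 kb away, and it stayed between 45.0 and 46.5 in each of the 6 distance classes. The 2 h JA medians of the same classes lay between 50.3 and 51.5 reads per kb. The median log2 fold change of 2 h JA over ctrl was 0.35 in the nearest and 0.36 in the farthest class, with a range of 0.35 to 0.36 over the 6 classes. The median size was 2799 bp in the farthest class and 3199 to 3399 bp in the others.

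**Figure D2:**
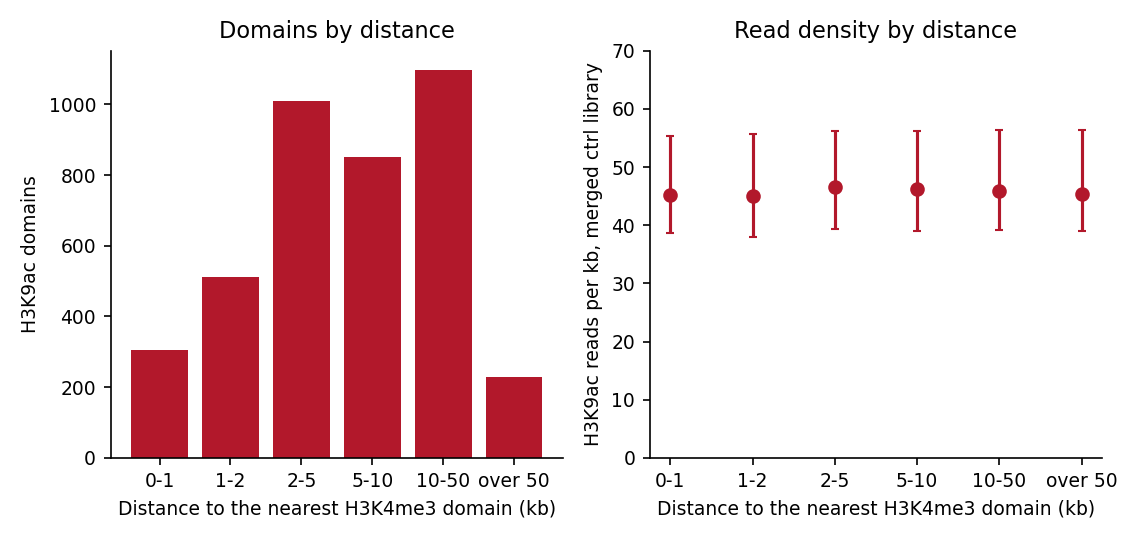
Left, number of H3K9ac domains without H3K4me3 in H3K4me3-dense bins (vertical axis) by distance to the nearest H3K4me3 domain in kb (horizontal axis, classes of unequal width); right, their H3K9ac reads per kb in the merged ctrl library, with medians as points and quartiles as bars. The largest class, 10 to 50 kb, holds 1097 domains, and the medians on the right lie between 45.0 and 46.5 reads per kb in all 6 classes.

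For the 4001 domains flanked by H3K4me3 on both sides, the stretch between the flanking H3K4me3 domains was 32200 bases long in the median. The quartiles were 17800 and 70800 bases, and a stretch was counted anew for each domain in it, which gives long stretches more weight. The nearer flank was 5800 bases away in the median and the farther flank 20200 bases. The 4005 domains fell into 2890 such stretches. In 2137 cases (53.4%, Wilson 95% interval over domains 51.8-54.9%) a domain was the only one of its kind in its stretch, 1066 shared the stretch with 1 other and 802 lay in stretches with 3 or more.

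The H3K4me3 domains next to them were like the H3K4me3 table as a whole in the measures taken. The H3K4me3 domain nearest to each had a median log2 fold change over IgG of 3.69, with quartiles of 2.90 and 4.18, against 3.66 with quartiles of 2.83 and 4.18 over all listed H3K4me3 domains. Their median size was 1799 bp in both cases, and the median read counts were 285 H3K4me3 and 34 IgG reads beside the domains without H3K4me3, and 280 H3K4me3 and 34 IgG reads over all. The nearest H3K4me3 domain had a log2 value over IgG of 1 or more in 3888 of 4005 cases (97.1%), and 96.8% of all listed H3K4me3 domains had. The nearest H3K4me3 domain itself overlapped a listed H3K9ac domain in 3352 cases (83.7%), and 83.4% of all listed H3K4me3 domains did. These shares are near their background, and some H3K4me3 domains were counted for more than 1 neighbor, as the 4005 domains had 3180 distinct nearest ones.

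Many of the domains stood beside another H3K9ac domain. The nearest other listed H3K9ac domain was 2800 bases away in the median, with quartiles of 1000 and 8800, and 1169 (29.2%) had one within 1 kb, where 800 bases is the smallest gap in the table. Over all listed H3K9ac domains the median gap was 3400 bases, with quartiles of 1000 and 10600. In 2702 cases (67.5%) the neighbor overlapped H3K4me3, and in 1254 cases (31.3%) it was another of the 4005 domains. Of all listed H3K9ac domains, 30.4% overlapped no H3K4me3 and 22.9% were among the 4005. The share of neighbors over H3K4me3 was thus near its background, and neither it nor the gap is a result about these domains. Where the neighbor overlapped H3K4me3, the domain without H3K4me3 had the lower ctrl density in 2569 of 2702 pairs (95.1%, Wilson interval 94.2-95.8%), with medians of 46.1 reads per kb in the domains without H3K4me3 and 104 in their neighbors. The difference in density was therefore also present between neighbors of the same region.

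The change after JA was small in these domains, as the ratio limit demands. The log2 fold change, which equals the log2 ratio of the read counts plus a constant of 0.23 throughout the table, ranged from 0.09 to 0.91, and the median was 0.35 (binomial 95% interval of the median 0.35-0.36). All listed domains had a median of 0.31. In 898 domains (22.4%) the value was 0.5 or more, which is 1.41-fold, against 12.9% of all listed domains. With uniquely aligned totals the median was 0.22 and 378 domains were at 0.5 or more. With the totals of replicate 3 also exchanged between the groups, the median was 0.069 and 107 domains were. Only the scaling changed, as the merged read counts stayed the same. As the table lists only domains higher in 2 h JA and the selection used this ratio, neither the direction nor the count is a result about these domains.

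The reads themselves were close to equal. More reads in 2 h JA than in ctrl were counted in 3379 domains (84.4%), against 74.6% of all listed domains, and 626 (15.6%) held no more reads in 2 h JA than in ctrl. Summed over all 4005 domains, the density was 52.4 reads per kb in 2 h JA and 48.3 in ctrl. The 95% Clopper-Pearson interval of the log2 fold change lay above 0 in 2212 domains (55.2%), against 76.3% of all listed domains, which hold more reads. When the libraries were scaled by the study's totals of uniquely aligned reads, which lowers each value by 0.13, the interval lay above 0 in 935 domains (23.3%), against 36.1% of all listed domains. With this scaling, the sign of the change was not settled at this depth in most of the single domains, and spread between replicates would widen these intervals.

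The change went with the number of reads, and is given by read class as a description, since the selection used the ratio. With fewer than 100 ctrl reads their median log2 fold change was 0.48, from 100 to under 200 it was 0.34, from 200 to under 400 it was 0.28, from 400 to under 800 it was 0.24 and at 800 and over it was 0.20. The domains over 1 H3K4me3 domain had medians of 0.50, 0.39, 0.32, 0.27 and 0.24 in the same classes. Over all numbers of reads the medians were 0.35 without H3K4me3 and 0.30 with 1 H3K4me3 domain. Both sets thus had larger medians where fewer reads were counted, and nothing is read from the difference between the sets. The lowest log2 fold change listed for a domain without H3K4me3 also went with reads, from 0.26 under 100 ctrl reads to 0.09 at 800 and over.

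**Figure D3:**
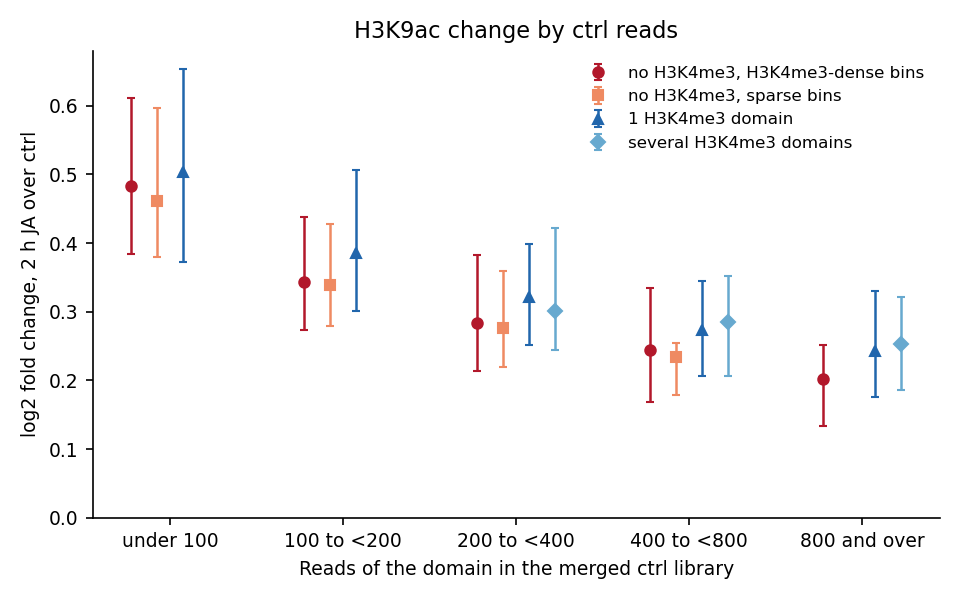
log2 fold change of H3K9ac, 2 h JA over ctrl, in the merged libraries (vertical axis) by the number of reads of the domain in the merged ctrl library (horizontal axis); points are medians and bars quartiles over domains, for the same 4 sets of domains. Medians of the domains without H3K4me3 in dense bins go from 0.48 under 100 ctrl reads to 0.20 at 800 and over, and those of the domains over 1 H3K4me3 domain from 0.50 to 0.24, with overlapping quartiles; sets with fewer than 10 domains in a class are not drawn, and the set over several H3K4me3 domains has 16 domains from 200 to under 400 reads.

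The highest changes lay just under the ratio limit and are given as a description. The domain on chromosome 10 from 525000 to 526999 held 187 reads in 2 h JA and 117 in ctrl, and its log2 fold change was 0.91 (counting interval 0.57-1.26). It lay 6000 bases from the nearest H3K4me3 domain, and 800 bases from an H3K9ac domain over H3K4me3 with 993 reads in 2 h JA and 864 in ctrl. On chromosome 5, the domain from 12543200 to 12545999 held 198 reads in 2 h JA and 124 in ctrl, also 0.91 (0.58-1.24). These 2 stood just inside the limit, with ratios of 1.598 and 1.597. Next in order came the domain on chromosome 5 from 10836400 to 10837199, with 67 reads in 2 h JA and 42 in ctrl. It was followed by those on chromosome 12 from 6112200 to 6115799, with 185 reads in 2 h JA and 116 in ctrl, and on chromosome 10 from 998600 to 1001199, with 113 reads in 2 h JA and 71 in ctrl. With uniquely aligned totals the intervals of all 5 lay above 0, the lowest bound being 0.20 in the domain with the fewest reads. As the 5 were picked for their high ratio, these intervals are no support for a gain.

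Just outside the limit, 2 domains in dense bins without H3K4me3 had a ratio of exactly 1.6. These lay on chromosome 1 from 4385400 to 4386799, with 104 reads in 2 h JA and 65 in ctrl, and on chromosome 7 from 65268600 to 65270399, with 96 reads in 2 h JA and 60 in ctrl. Their counting intervals began at 0.45 and 0.43 and overlapped those of the domains just inside. In all, 170 domains met the other criteria with a ratio of 1.6 or more. For the density criterion, 126 domains lay in bins with exactly 10 H3K4me3 domains, and 137 that met the other criteria lay in bins with exactly 9. Both limits thus divide neighboring values.

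The neighbor of a domain could have a much higher change. Beside the domain on chromosome 12 from 6112200, another H3K9ac domain 3800 bases away without H3K4me3 held 172 reads in 2 h JA and 50 in ctrl, a log2 fold change of 2.02, with a ratio above the limit. On chromosome 10, the domains from 19049400 to 19052999 (179 reads in 2 h JA, 132 in ctrl) and from 19060200 to 19063599 (123 reads in 2 h JA, 83 in ctrl) stood on both sides of a domain with 338 reads in 2 h JA and 188 in ctrl and a log2 fold change of 1.08. Both had a smaller change than the domain between them, 0.67 (0.34-1.01) and 0.80 (0.39-1.22). They were also among the 3 farthest from H3K4me3, at 326000 and 315400 bases. The farthest, on chromosome 8 from 41713000 to 41719399, lay 363200 bases away and held 431 reads in 2 h JA and 364 in ctrl, a log2 fold change of 0.48 (0.27-0.68).

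The 5 longest domains had changes below the median of 0.35, which did not hold for all long ones, since a domain with 800 or more ctrl reads had 0.89. The longest, on chromosome 9 from 66400200 to 66423599, held 973 reads in 2 h JA and 1076 in ctrl, and its log2 fold change of 0.09 (-0.04 to 0.21) was also the lowest. It filled most of a stretch between H3K4me3 domains, which began 2400 bases to its left and 5400 bases to its right. The domain on chromosome 3 from 56678200 to 56700799 held 1198 reads in 2 h JA and 1237 in ctrl, with 0.19 (0.07-0.30). In the same stretch lay another of the 5 longest, from 56718400 to 56738199, with 949 reads in 2 h JA and 1006 in ctrl and 0.15 (0.02-0.28). The other 2 of the 5 longest spanned 20799 bp on chromosome 1 from 80826000, with 869 reads in 2 h JA and 932 in ctrl, and 20399 bp on chromosome 4 from 2035400, with 991 reads in 2 h JA and 1090 in ctrl. All 5 held fewer reads in 2 h JA than in ctrl, so that their positive values rest on the constant of 0.23. The remaining domain among the 3 lowest changes lay on chromosome 3 from 65025400 to 65035799, with 845 reads in 2 h JA, 930 in ctrl and 0.10 (-0.04 to 0.23). With uniquely aligned totals, no interval of these 6 domains lay above 0.

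The densest H3K9ac among the domains without H3K4me3 was found in small ones. On chromosome 1, the domain from 90117000 to 90117999 held 181 reads in 2 h JA and 173 in ctrl over 1 kb, which is 181 and 173 reads per kb. Domains over 1 H3K4me3 domain had an upper quartile of 145 in ctrl at all sizes. Among those under 1600 bp, the class of this domain's size, the median was 190, with quartiles of 152 and 224. The ctrl value was thus below the median of that class. The domain stood 800 bases from an H3K9ac domain over H3K4me3 and 2400 bases from H3K4me3 itself. Next came the domain on chromosome 3 from 48618600 to 48619599, with 153 reads in 2 h JA and 155 in ctrl, and that on chromosome 1 from 92066400 to 92066999, with 97 reads in 2 h JA and 87 in ctrl. The counting intervals of the log2 fold change included 0 in all 3.

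Only 5 of the 4005 domains touched H3K4me3, with no base between the listed edges. The 3 first in chromosome order lay on chromosome 4 from 63586600 to 63591599 (229 reads in 2 h JA, 221 in ctrl), on chromosome 5 from 66346600 to 66349799 (131 reads in 2 h JA, 120 in ctrl) and on chromosome 6 from 38858200 to 38863999 (221 reads in 2 h JA, 223 in ctrl). Their ctrl densities were 44.2, 37.5 and 38.4 reads per kb, below the median of 45.9 over the 4005 domains. The H3K4me3 domains they touched held 462, 170 and 275 H3K4me3 reads and 53, 63 and 28 IgG reads. Touching H3K4me3 thus went with no higher H3K9ac density in these 3.

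Across the genome these domains were found in 383 of the 388 dense bins, with a median of 10 per occupied bin and quartiles of 6 and 14. In bins of 10 to 24 H3K4me3 domains there were 6.41 domains without H3K4me3 per bin and 10.9 other listed H3K9ac domains, and in bins of 75 to 117 there were 13.1 and 54.9. Between them, bins of 25 to 49 held 11.8 and 24.5, and bins of 50 to 74 held 14.6 and 41.4. The share of domains without H3K4me3 among the listed H3K9ac domains was accordingly 37.0% (Wilson interval 35.3-38.9%) in the least dense and 19.3% (18.3-20.3%) in the densest bins. Most of the other listed H3K9ac domains overlap H3K4me3 and so follow its number in a bin by definition, and nothing is read from the difference in number or share. The median density of the domains lay between 44.5 and 47.4 reads per kb in ctrl in these 4 kinds of bins, and the median log2 fold change was 0.35 or 0.36.

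**Figure D4:**
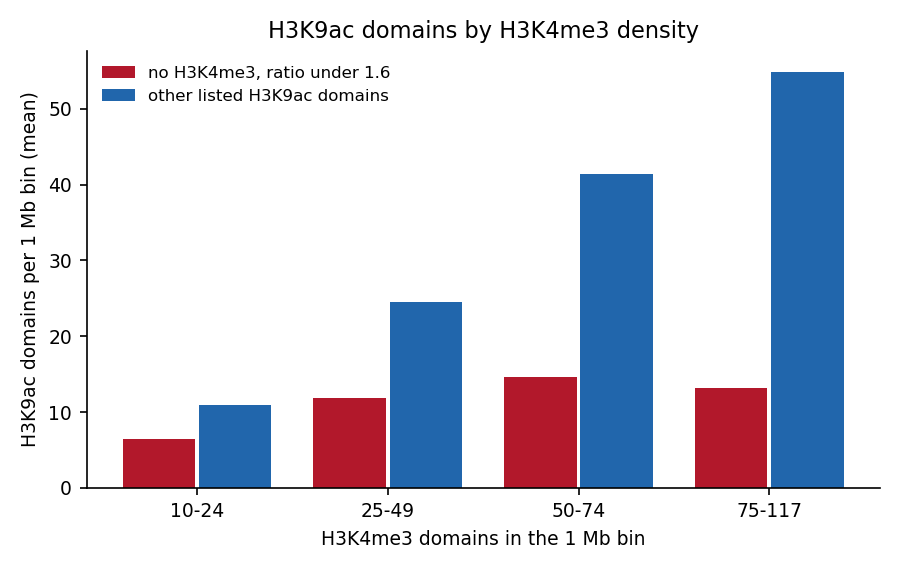
Mean number of listed H3K9ac domains per 1 Mb bin (vertical axis) by the number of H3K4me3 domains in the bin (horizontal axis), for domains without H3K4me3 and with a ratio under 1.6, and for the other listed H3K9ac domains. The domains without H3K4me3 go from 6.41 per bin in the least dense bins to 13.1 in the densest, the other domains from 10.9 to 54.9.

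All 12 chromosomes carried such domains, between 182 on chromosome 2 and 466 on chromosome 1. Per dense bin the number was lowest on chromosome 11, with 8.74, and highest on chromosome 6, with 12.04. Their share of the listed H3K9ac domains in dense bins was lowest on chromosome 1, 22.4% (20.7-24.3%), and highest on chromosome 8, 29.2% (26.8-31.7%), against 26.5% over all chromosomes. The median log2 fold change was 0.39 on chromosome 7 and 0.38 on chromosome 10, and lay between 0.34 and 0.36 on the other 10. The median distance from the nearer end of the chromosome, taken as its outermost listed H3K9ac domain, was 6.66 Mb, against 6.67 Mb for all listed domains and 22.5 Mb for the domains without H3K4me3 in sparse bins.

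The bin with the most domains without H3K4me3 was on chromosome 7 from 6 to 7 Mb, where 33 of 52 listed H3K9ac domains were of this kind, beside 19 H3K4me3 domains. They spanned 599 to 19199 bp, and together 133 kb. Their reads numbered 46 to 1234 in 2 h JA, with a median of 123, and 29 to 1218 in ctrl, with a median of 105. The ctrl density was 35.3 reads per kb in the median, with a range of 24.7 to 63.4, which was lower than the median of 45.9 over all 4005 domains. The log2 fold change ranged from 0.19 to 0.90, with a median of 0.44. The highest was that of the smallest domain, with 46 reads in 2 h JA and 29 in ctrl, while the longest, with 1234 reads in 2 h JA and 1218 in ctrl, had 0.25. The next in number were the bins of chromosome 7 from 5 to 6 Mb with 31 domains and of chromosome 3 from 55 to 56 Mb with 27.

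On chromosome 7, 2 stretches free of H3K4me3 held 11 domains each, the most of any stretch. The first ran over 138.2 kb from 4803399 to 4941600, and its domains covered 36.2% of it with 2031 reads in 2 h JA and 1771 in ctrl. Their log2 fold changes were 0.27 to 0.61, with a median of 0.40, and their ctrl densities 30.3 to 42.4 reads per kb. The second ran over 94.8 kb from 6296999 to 6391800, and its domains covered 43.7% with 1635 reads in 2 h JA and 1337 in ctrl. Their log2 fold changes were 0.20 to 0.79, with a median of 0.58, and their ctrl densities 24.7 to 54.3 reads per kb. H3K4me3 was strong at the borders of both, with log2 fold changes over IgG of 4.15 and 5.17 at the first and of 3.86 and 4.03 at the second. No other listed H3K9ac domain lay wholly within either stretch. At the left border of the second, an H3K9ac domain over H3K4me3, with 1003 reads in 2 h JA and 1093 in ctrl, reached into the stretch. It ended 800 bases before the first of the 11 domains there.

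**Figure D5:**
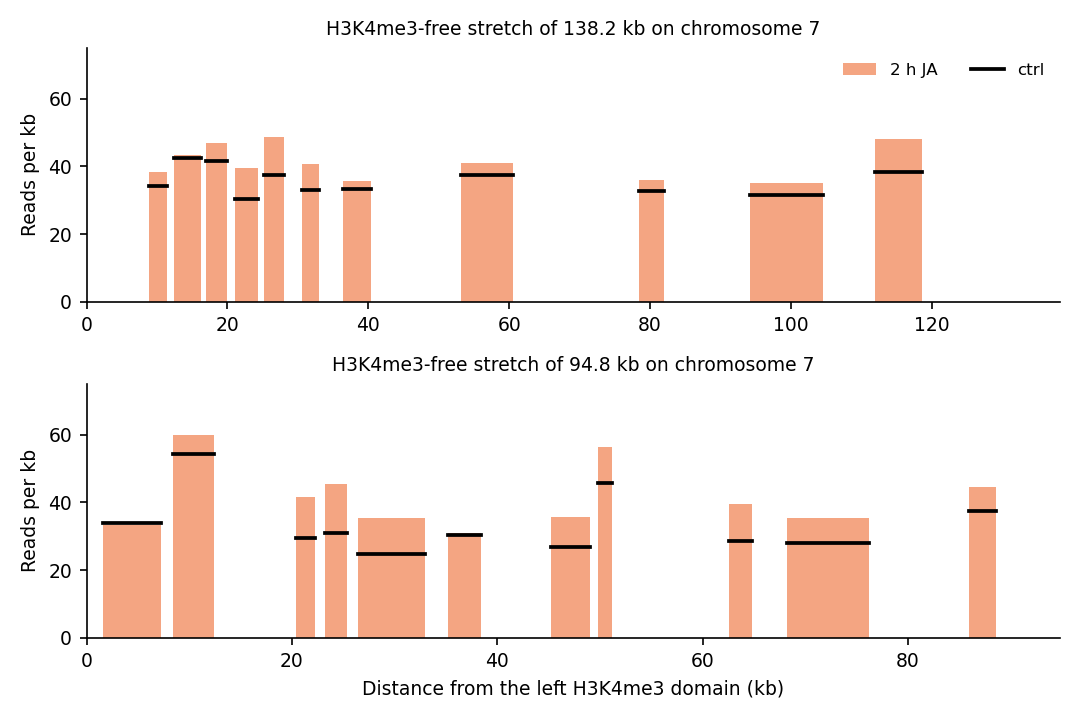
H3K9ac reads per kb (vertical axes) in the 11 domains of each of the 2 H3K4me3-free stretches of chromosome 7, against the distance from the H3K4me3 domain at the left border in kb (horizontal axes); filled blocks are the merged 2 h JA library and black lines the merged ctrl library, unscaled. The blocks span 138.2 kb above and 94.8 kb below, and the ctrl lines lie between 30.3 and 42.4 reads per kb above and between 24.7 and 54.3 below.

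Positions on this assembly were known for some defense loci. Each locus was taken as the H3K9ac domain over its genes, and distances run to the edges of that domain. Between 0 and 2 domains without H3K4me3 lay within 100 kb of each of 4 such loci. As background, bins of 50 to 74 and of 75 to 117 H3K4me3 domains held 14.6 and 13.1 of them per 1 Mb bin. The windows here reach only 100 kb to each side of a locus and are much smaller than a bin. The numbers are therefore not in like units, and nothing about the loci is read from such low counts. Proteinase inhibitors block the digestive enzymes of feeding insects, and the hydroxycinnamoyl CoA quinate transferases act in the synthesis of phenylpropanoids. Within 100 kb of the proteinase inhibitor genes Solyc09g084450 to Solyc09g084490, 2 domains without H3K4me3 were found on chromosome 9. The domain from 66521200 to 66528799 held 470 reads in 2 h JA and 443 in ctrl, a log2 fold change of 0.32 (0.13-0.51), and that from 66541400 to 66546399 held 172 reads in 2 h JA and 170 in ctrl, 0.25 (-0.06 to 0.57). The domain over the genes themselves, which overlaps 4 H3K4me3 domains, held 3577 reads in 2 h JA and 1745 in ctrl and had a log2 fold change of 1.27 (1.19-1.35), above both. Also within 100 kb were 2 domains without H3K4me3 whose ratio was 1.6 or more.

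Within 100 kb of the H3K9ac domain over the transferase genes Solyc12g096770, Solyc12g096790 and Solyc12g096800 on chromosome 12, 2 domains without H3K4me3 were found. Those from 67657800 to 67660999 and from 67874000 to 67877799 lay 80600 and 93800 bases from its edges. The nearer held 125 reads in each library and the other 133 in 2 h JA and 126 in ctrl, with log2 fold changes of 0.23 (-0.14 to 0.60) and 0.31 (-0.05 to 0.68). The domain over the genes had 1.37 (1.30-1.44). No domain of the kind described here lay within 100 kb of the second group of proteinase inhibitor genes, Solyc09g089490 to Solyc09g089540, or of SlJAZ2, which encodes a JAZ repressor. The nearest were 124.2 kb and 114.6 kb away, and the first of these was the domain from 66541400 to 66546399 named above. The H3K9ac domains over these 4 loci overlapped 3 to 6 H3K4me3 domains each, and 5 to 12 other listed H3K9ac domains lay within 100 kb of each locus.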

How the data were processed

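Per the methods, alignment by the authors was to SLM_r2.0.pmol in Bowtie2 2.4.1 (the build field of the labels reads TAIR10). Libraries of the 3 replicates were then combined, and epic2 0.0.52, named SICER in the submitters' processing notes, was run on them, with IgG as control for H3K4me3 and ctrl as control for 2 h JA H3K9ac. Window, gap and read filters are not given in the sources used here. Fragmentation is given as MNase in the paper and as sonication in the labels. The deposited read counts are unscaled whole numbers for each domain. The FDR, an adjusted p-value, was deposited by the authors and is at most 0.05 throughout. The deposited log2 fold change is the log2 ratio of the counts plus 0.23 (H3K9ac) or 0.74 (H3K4me3). The deposited score is a multiple of it and was not used. The hemp table was not used here. RefSeq genes of SLM_r2.1, another build, and the Arabidopsis genome were not used with these coordinates.

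Sizes are end minus start, distances count the bases between edges, and densities are raw reads per kb of domain, not scaled between libraries. Intervals are 95% Wilson (shares), binomial (medians) and Clopper-Pearson (log2 fold changes), and reads carry no molecular identifiers, so that intervals of reads cover counting error only. No test was made, because each group is 1 pooled library. Named domains are the 5 longest, the 5 highest and 3 lowest log2 fold changes with at least 100 reads in both libraries together, the 3 densest in ctrl reads, the 3 farthest from and 3 nearest to H3K4me3, those within 100 kb of 4 named loci, the 2 on each side of the ratio limit, and those of the fullest bin. The set and these rules were chosen with earlier results of these data known. The classes of reads, size, distance and bin density, and the stretches of chromosome 7, were chosen after values were seen. Alternatives varied the limits of the selection, the overlap, the FDR, the minimum of reads, the scaling and the pseudocount. Functions were tested on simulated domains. Computation was in Python 3.11.15 (SciPy 1.17.1, NumPy 2.4.6, pandas 2.3.3), and plots were drawn in matplotlib 3.10.9.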

Additional observations from a re-analysis of the deposited data

How the results depend on the processing

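Of 67 recomputed values, 45 stayed within the interval of the reported one, or within 1.5 times for a count, and 22 moved. Only the log2 fold change could change sign, and its median stayed above 0. This is no support for the direction, as only domains higher in 2 h JA are listed. An FDR of at most 0.001 left 1607 domains, with a median size of 3599 bp, a median log2 fold change of 0.50, 45.3 ctrl reads per kb, a distance of 5400 bases to H3K4me3 and 70.1% alone in their stretch. With 20 or more H3K4me3 domains per bin the size was 3399 bp, the distance 4800 bases and the share alone 55.9%, and with 5 or more the distance was 6800 bases and the share 50.6%. A ratio limit of 1.4 gave a log2 fold change of 0.345 and a share of 55.4%, and no limit gave 0.364. Allowing H3K4me3 on under 10% of a domain gave a share of 55.1%, excluding H3K4me3 within 1 kb a distance of 6600 bases, and measuring between midpoints a distance of 9000 bases. Scaling moved the change most. Uniquely aligned totals gave a median of 0.22 and 378 domains at 0.5 or more. Exchanging the totals of replicate 3 between the groups gave 0.069 and 107 domains, and left the merged read counts as they were. This was tried since the study's sample list gives the treatment of replicate 3 in exchanged order. Limiting the set to 200 to under 400 ctrl reads, chosen after the data were seen, gave 0.28. No paired analysis was possible because the domain tables used here hold 1 merged count per group, and for the same reason no replicate could be left out.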

Other observations

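On chromosome 7 the bins from 4 to 7 Mb, chosen after their values were seen, held 88 of the 4005 domains without H3K4me3. Their median log2 fold change of 2 h JA over ctrl was 0.46, with quartiles of 0.34 and 0.60, against 0.35 with quartiles of 0.27 and 0.48 in the other 3917. The value was 0.5 or more in 35 of the 88 (39.8%) and in 863 of the 3917 (22.0%). The H3K9ac density was lower there, with medians of 43.0 reads per kb in 2 h JA and 35.8 in ctrl, against 51.4 and 46.0 elsewhere, while the sizes were alike with medians of 3399 and 3199 bp. The 84 H3K9ac domains over H3K4me3 in the same bins had a median log2 fold change of 0.32 and a median of 99.3 ctrl reads per kb, against 0.29 and 107 in the other 10753 of dense bins. The median number of ctrl reads was 126 in the 88 domains and 146 in the other 3917. The selection used the read ratio, and fold changes were larger where fewer reads were counted. With pooled libraries these differences were not tested, and the part of the lower ctrl density and read number in the higher fold change was not tested.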
